A study of Mus musculus with 12 samples.

Results

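From the authors' series table of 25030 probes, 24 were selected for lower values in beta-catenin knockout than wild-type footpad skin at E16.5 and E17.5. At E15.5 they had at most a small difference in that direction, and 13 of the 24 were below 0 there. The table's processed values are in log10, and the members were chosen on those values. For each stage the mean of the 2 wild-type columns was subtracted from the mean of the 2 knockout columns. A member had a difference of -0.2 or lower at each of the later stages, a difference above -0.1 at E15.5, and a mean of the 3 differences of -0.176 or lower. A log10 difference of -0.2 is a 1.58-fold lower value. Because all 12 arrays entered the choice, every comparison of genotypes or stages for these probes is a description, and no p-value is printed for them. The calls counted further below come from a fit across all probes and are not tests of these members.

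The samples were total RNA from footpad skin of C57BL/6 mouse embryos, in 6 groups of 2 arrays: wild type or with a beta-catenin knockout specific to skin, sampled at stage E15.5, E16.5 or E17.5. Footpad RNA carried Cy3 and a common reference carried Cy5 on every array. The reference combined RNA pooled from cultured mouse cell lines with RNA of 129 embryonic stem cells. The Cre driver, the alleles of the wild-type embryos and whether a group's arrays came from separate animals are not given in the sources used here, so the spread between 2 arrays may be technical. Each stage lay on its own slide, and on each slide knockout RNA took array positions 1 and 2 and wild-type RNA positions 3 and 4, so that stage and slide, and genotype and position, cannot be told apart. The files give the probes no gene names, and the targeted transcript and the markers of skin were not analysed here. Cy3 was well above background at 59.1% to 72.4% of probe spots per array.

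Beta-catenin is a cell adhesion protein that also carries the canonical Wnt signal into the nucleus, where it activates target genes with Lef and Tcf transcription factors. In mouse skin this signal is needed for hair follicle and sweat gland placodes to form. The hairless footpads are the site where mouse sweat glands develop, and their germs grow down from the epidermis over the late embryonic stages sampled here. In RNA from whole skin, fewer cells of a type and less RNA per cell cannot be told apart.

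Since no gene name is paired with these probes, their identity is the probe sequence of 60 bases. The 11 sequences shown belong to the members on which the description below turns. In these, Cy3 was well above background on at least 2 arrays, and both knockout arrays lay below both wild-type arrays at E16.5 and again at E17.5. All are in lower case because no stretch of any of them was singled out. None of the 24 member sequences occurred in the RefSeq promoter or miRNA tables (GRCm38.p6), none shared a run of 20 bases with another probe of the array, and their genome positions are not given here.
Z00045412-1: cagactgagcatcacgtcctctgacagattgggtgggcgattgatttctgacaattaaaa
Z00053291-1: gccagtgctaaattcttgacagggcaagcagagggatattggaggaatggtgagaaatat
Z00075530-1: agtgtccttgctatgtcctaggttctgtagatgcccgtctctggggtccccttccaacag
Z00026482-1: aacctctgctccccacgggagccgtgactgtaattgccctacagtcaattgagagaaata
Z00026375-1: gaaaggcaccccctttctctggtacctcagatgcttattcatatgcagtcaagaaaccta
Z00071173-1: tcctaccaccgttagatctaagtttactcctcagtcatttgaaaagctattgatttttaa
Z00028616-1: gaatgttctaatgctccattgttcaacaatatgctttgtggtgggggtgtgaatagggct
Z00071026-1: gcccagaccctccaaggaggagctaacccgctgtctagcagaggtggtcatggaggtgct
Z00029510-1: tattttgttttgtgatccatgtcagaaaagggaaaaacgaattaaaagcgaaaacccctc
Z00034367-1: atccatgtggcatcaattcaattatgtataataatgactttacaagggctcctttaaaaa
Z00025643-1: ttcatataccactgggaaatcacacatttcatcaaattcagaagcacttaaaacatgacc

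In the authors' deposited table the 24 members covered a wide range at the late stages and a narrow one at E15.5. Their log10 differences ran from -0.67 to -0.21 at E16.5, with a median of -0.34, and from -0.88 to -0.21 at E17.5, with a median of -0.36. At E15.5 they ran from -0.075 to 0.16, with 8 above 0, 3 at exactly 0 and 13 below. The gap was wider at E17.5 in 15 members and at E16.5 in 9. The lowest late value belonged to Z00029510-1, at -0.88 at E17.5, a probe whose Cy3 signal was well above background on no knockout array. The highest E15.5 value belonged to Z00025643-1, at 0.16, and that probe was at -0.67 at E16.5.

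The thresholds fell among closely spaced values. In all, 123 probes met both late thresholds whatever their E15.5 value, and 67 of them were also at -0.2 or lower at E15.5. Another 18 had an E15.5 difference between -0.2 and -0.1. Of the 38 with an E15.5 difference above -0.1, 14 missed the threshold on the mean. At E15.5 the nearest member was Z00071026-1, at -0.075, and the nearest probe outside was Z00025099-1, at -0.12. At E16.5 the nearest member, Z00026482-1, was at -0.21255 and the nearest probe outside, Z00018218-1, at -0.19905. At E17.5 these were Z00026774-1, at -0.206, and Z00026845-1, at -0.168. On the mean they were Z00072174-1, at -0.1787, and Z00076262-1, at -0.1748.

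The members fell into 3 kinds by whether the footpad channel was measured at all. Cy3 was well above background on all 12 arrays for 9 members, on some arrays for 9, and on no array for 6. Over the whole series table, 60.8% of probes were well above background on all 12 arrays and 21.5% on none. In the 9 partly detected members, the wild-type spots well above background numbered 2 of 18 at E15.5 and 12 of 18 at each later stage. The knockout spots numbered 0, 2 and 1 in order of stage. These probes were thus measured mainly on the late wild-type arrays, a split that the selection for low late knockout values favoured. At 3 members, Z00024414-1, Z00037454-1 and Z00025131-1, the table holds 1 identical value on all 4 arrays of E15.5, as it does for 2996 probes in all, so an E15.5 difference of exactly 0 there is not a measured equality. Agilent's software had put a surrogate in place of the Cy3 signal on at least 1 array for 13 members, and on all 4 E15.5 arrays for 6.

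The values that follow were recomputed from the deposited scanner intensities as log2 of footpad over reference after background correction and loess normalization. The offset of 50 added in that correction draws the ratios of dim probes towards 0. Over the 9 members detected throughout, the median difference of knockout minus wild type was 0.07 at E15.5, then -0.61, then -0.84. Over all 24 it was -0.02, -0.35 and -0.38. The median of -0.84 was the value of Z00026983-1, a probe that rested on single arrays, as described below. Over all probes tested the medians were 0.01, -0.00 and 0.01. The direction at the late stages was fixed by the selection. Both knockout arrays lay below both wild-type arrays already at E15.5 in 6 of the 24 on this scale, where 21% of the probes tested did. At E16.5 they did so in 17 members (25.8% of the probes tested), at E17.5 in 18 (28.1%) and at both in 15 (13.5%). In the authors' table, which made the selection, the E15.5 count was 2, where 18.7% of all probes did. The later counts there were 22 at E16.5 (19.3%), 24 at E17.5 (24.8%) and 22 at both (10.8%).

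Z00045412-1 had the widest gap of the 9 at E17.5. In this and the following accounts the values of a genotype are given in order of stage, replicates 1 and 2 in turn. Its log2 ratios in knockout were 1.52 and 1.97 at E15.5, then -0.78 and -0.63, then -0.55 and -0.54. In wild type they were 1.72 and 2.22, then 0.83 and 0.74, then 0.95 and 0.97. The genotypes overlapped at E15.5 and stood well apart at both later stages. Both genotypes were at their highest at E15.5: the difference in mean between E15.5 and E16.5 was -1.19 in wild type and -2.45 in knockout. Knockout was 2.81-fold lower at E16.5, at -0.71 ± 0.11 against 0.78 ± 0.07 (SD, n = 2), and 2.83-fold lower at E17.5, at -0.54 ± 0.005 against 0.96 ± 0.01.

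Z00053291-1 had opposite courses in the genotypes on this scale. Its log2 ratios in knockout were -0.37 and -0.11, then -0.98 and -1.20, then -0.84 and -0.52. In wild type they were -0.62 and -0.14, then 0.14 and -0.06, then 0.02 and 0.42. The groups overlapped at E15.5, and later all knockout arrays were below all wild-type arrays. From E15.5 to E16.5 the difference in mean was -0.85 in knockout and 0.43 in wild type. From E15.5 to E17.5 it was -0.44 in knockout and 0.60 in wild type, and with median centring 0.02 and 0.64. Knockout was 2.20-fold lower at E16.5 and 1.86-fold lower at E17.5. Agilent's own processed signals put the E16.5 log2 difference at -1.77 in place of -1.13.

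In Z00026375-1 the wild-type means lay between -0.41 and -0.25 at all stages, and the knockout means did not. Its wild-type log2 ratios were -0.42 and -0.33, then -0.38 and -0.43, then -0.17 and -0.34. In knockout they were -0.32 and -0.09, then -0.88 and -0.90, then -0.79 and -0.999. At E15.5 the knockout mean was the higher one, by 0.17, and later both knockout arrays were the lower ones. Knockout was 1.40-fold lower at E16.5 and 1.56-fold lower at E17.5.

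The gap in Z00026482-1 was wider at each stage than at the one before. Its knockout log2 ratios were -0.38 and -0.66, then -1.04 and -0.91, then -1.32 and -1.22. The wild-type ratios were -0.64 and -0.54, then -0.32 and -0.41, then -0.52 and -0.24. The genotypes overlapped at E15.5, and the knockout mean was lower at each later stage than at the one before. Knockout was 1.53-fold lower at E16.5 and 1.85-fold lower at E17.5. Its late differences moved by less than 1.5 times under each alternative processing and with each array left out. The same held for Z00045412-1 and Z00075530-1, and for no other member. Even so, Z00026482-1 met the selection in 8 of the 12 repeats that left out 1 array, Z00045412-1 in 10 and Z00075530-1 in 11. With median centring the knockout change of Z00026482-1 from E15.5 to E17.5 was -0.13 in place of -0.75.

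Z00075530-1 was at its lowest at E16.5 in both genotypes. Its knockout log2 ratios were -0.34 and -0.18, then -0.94 and -1.01, then -0.54 and -0.61. In wild type they were -0.11 and -0.18, then -0.25 and -0.48, then 0.44 and 0.26. The genotypes were apart at all 3 stages, E15.5 included, where the nearest arrays were equal to 2 decimals. With Agilent's processed signals and in the authors' table they were apart at E15.5 too. From E16.5 to E17.5 the difference in mean was 0.40 in knockout and 0.72 in wild type. Knockout was 1.52-fold lower at E16.5 and 1.90-fold lower at E17.5.

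Smaller gaps were seen in Z00071173-1 and Z00028616-1. The log2 ratios of Z00071173-1 in knockout were 0.58 and 0.62, then 0.41 and 0.48, then 0.52 and 0.82, against 0.92 and 0.71, then 0.81 and 0.96, then 1.04 and 1.23 in wild type. In this probe the knockout arrays already lay below the wild-type arrays at E15.5, by 1.16-fold, and the later gaps were 1.36-fold and 1.38-fold. Its genotypes were apart at E15.5 with Agilent's processed signals and in the authors' table as well, as in Z00075530-1 and no other member. Z00028616-1 had log2 ratios of 1.03 and 1.34, then 0.73 and 0.88, then 0.95 and 0.87 in knockout, against 1.15 and 1.52, then 1.096 and 1.43, then 1.25 and 1.38 in wild type. Its groups overlapped at E15.5 only, and the knockout was 1.37-fold lower at E16.5 and 1.32-fold lower at E17.5. Without wild-type replicate 2 its E16.5 log2 difference was -0.29 in place of -0.46.

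The remaining pair among the 9 rested on single arrays. Z00026983-1 was at 0.77 and 0.84, then 1.06 and 0.91, then 0.82 and 0.30 in knockout, and at 0.70 and 0.70, then 0.89 and 4.01, then 1.78 and 1.02 in wild type. The value of 4.01 came from wild-type replicate 2 at E16.5, where the log2 reference signal was also high, at 9.57 against 6.90 to 7.23 on the other arrays. The E16.5 difference of -1.46 became 0.10 without that array, and the probe no longer met the selection. Its E17.5 difference of -0.84 was -0.46 without wild-type replicate 1 and -0.56 with median centring in place of loess. Z00031876-1 was at 0.72 and 1.65, then 1.32 and 0.97, then 0.77 and 0.47 in knockout, and at 1.29 and 0.82, then 2.31 and 1.503, then 0.60 and 1.18 in wild type. Its groups overlapped at E15.5 and at E17.5, and the E17.5 difference of -0.27 was 0.01 without wild-type replicate 2. At E16.5 its difference of -0.76 was -0.36 without wild-type replicate 1, and it met the selection in 6 of the 12 repeats that left out 1 array.

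For the 9 partly detected members a fold against an undetected group is only a lower bound. It is given as "at least" a fold between Cy3 signals, the wild-type mean against the lowest Cy3 signal well above background or the knockout's own signal where that was higher, and it is open to dye bias. It is given where both wild-type arrays were detected and it stayed below the fold of the ratios and of Cy3 alone, and left out elsewhere. For Z00071026-1 at E16.5 it was 1.41, above the 1.36-fold of the ratios. For Z00034367-1 at E17.5 it was 1.27, above the fold of Cy3 alone, where the log2 difference was -0.26. It can thus exceed the other estimates and is a bound on its own Cy3 scale only. Z00071026-1 had the largest wild-type gain from E15.5 to E17.5 on the loess scale, at 1.12. Its wild-type log2 ratios were 0.24 and 0.11, then 0.52 and 0.44, then 1.47 and 1.12. In knockout they were 0.40 and -0.04, then 0.12 and -0.05, then 0.13 and 0.10. The knockout means lay between 0.03 and 0.18 at all stages, and the groups were apart at both late stages. At E16.5, where no knockout array and both wild-type arrays were well above background, the log2 ratio was 0.03 ± 0.12 against 0.48 ± 0.06 (SD, n = 2). At E17.5, where 1 knockout array was detected, it was 0.12 ± 0.02 against 1.30 ± 0.25. The E16.5 log2 difference of -0.44 was -0.21 with median centring.

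Z00029510-1 showed the same order with a smaller span. Its wild-type log2 ratios were 0.04 and 0.13, then 0.39 and 0.20, then 0.53 and 0.51. In knockout, where it was well above background on no array at any stage, they were -0.17 and -0.0022, then -0.08 and -0.12, then -0.18 and -0.28. The groups did not overlap at any stage on this scale, E15.5 included. Knockout was at least 1.11-fold lower at E16.5 and at least 1.30-fold lower at E17.5. The E17.5 log2 difference was -0.75 here, -3.20 with Agilent's processed signals and -2.93 in the authors' table. Both knockout arrays of E17.5 carried a surrogate Cy3 signal, so neither of the latter values rests on a measured knockout level.

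Z00025643-1 and Z00034367-1 were also apart at both late stages. Z00025643-1 had wild-type log2 ratios of 0.12 and 0.22, then 0.39 and 0.47, then 0.55 and 0.52, against 0.23 and 0.06, then 0.06 and 0.18, then 0.18 and 0.35 in knockout. Its knockout was at least 1.16-fold lower at E16.5 and at least 1.15-fold lower at E17.5. Z00034367-1 had the lower course in knockout: its wild type was at -0.22 and -0.20, then -0.18 and -0.20, then -0.14 and -0.11, while its knockout went from -0.11 and -0.32 through -0.40 and -0.44 to -0.60 and -0.54. This was the single partly detected member with both knockout arrays well above background at E16.5. They were not at E17.5. In Cy3 alone its late log2 differences were -0.15 and -0.26, in place of -0.23 and -0.44.

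The other 5 partly detected members had log2 differences between -0.40 and -0.05 at the late stages. Z00024414-1 was detected on both wild-type arrays at E17.5, with knockout at least 1.15-fold lower. At E16.5 it was detected on 1 wild-type array, its groups overlapped, and its difference of -0.16 was -0.02 without wild-type replicate 1. None of the other 4 was detected on both wild-type arrays of a stage, so their differences carry no bound. Z00036303-1 was detected on 1 wild-type array, at E17.5, where its difference was -0.37, or -0.25 without wild-type replicate 2. Z00037454-1 was detected on 1 wild-type array, at E16.5, where its difference was -0.10, or -0.02 without wild-type replicate 1. Z00052592-1 was detected on 1 wild-type array at each late stage, and its groups overlapped at every stage. Its differences of -0.05 and -0.16 were 0.0012 and -0.03 without wild-type replicate 1 of the stage. Z00027182-1 was detected on 1 wild-type array of E16.5, and its knockout arrays lay below the wild-type arrays at all 3 stages on this scale.

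For the 6 members detected on no array the table's difference has no measured level behind it in footpad RNA. Their log2 Cy3 signals, quantile normalized, lay between 5.78 and 6.22. Their recomputed log2 differences lay between -0.52 and -0.08 at E16.5 and between -0.34 and 0.01 at E17.5. The -0.52 was Z00076869-1, whose log2 ratios at E16.5 were 0.05 and -0.87 in knockout and 0.19 and 0.04 in wild type. Its low value came from knockout replicate 2, where the log2 reference signal was 7.51 against 6.04 to 6.22 on the other arrays. Without that array the difference was -0.06. Z00025131-1 was lower by 0.25 and 0.29 without overlap, at 0.38 and 0.18 in wild type against 0.07 and -0.02 in knockout at E16.5. Those differences were -2.43 and -2.20 with Agilent's processed signals, where all knockout arrays of both stages carried a surrogate Cy3 signal. Z00044277-1 had ratios from -1.70 to -1.13 over the 12 arrays, with its reference well above background on all of them. Z00036976-1, Z00026774-1 and Z00072174-1 had differences between -0.15 and 0.01 at the late stages.

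The courses over time were also taken from the same arrays. The selection asked for a lower difference of knockout minus wild type at E17.5 than at E15.5, so it favoured opposite courses. From E15.5 to E17.5 the median change over the 24 members was 0.22 in wild type and -0.15 in knockout, against -0.01 and -0.02 over all probes tested. The change in mean was above 0 in wild type and below 0 in knockout for 13 members. Both changes were above 0 in 6, both were below 0 in 4, and in Z00072174-1 the wild-type change was -0.02 and the knockout change 0.08. Among the 9 detected members the opposite courses numbered 5, with 3 below 0 in both genotypes and 1 above 0 in both. These counts move with the scaling: opposite courses numbered 19 of 24 with Agilent's processed signals, 17 in the authors' table, 16 with median centring and 13 in Cy3 alone. On the loess scale the largest wild-type gains were 1.12 in Z00071026-1, 0.70 in Z00026983-1, 0.60 in Z00053291-1, 0.49 in Z00075530-1 and 0.43 in Z00029510-1. The lowest knockout changes on that scale were -2.29 in Z00045412-1, -0.75 in Z00026482-1, -0.69 in Z00026375-1, -0.57 in Z00031876-1 and -0.44 in Z00053291-1. Z00045412-1 had the lowest wild-type change too, at -1.01. These orders depend on the scaling. With Agilent's processed signals the wild-type gain was 3.47 in Z00025643-1, 3.09 in Z00029510-1 and 1.74 in Z00071026-1, and the knockout change of Z00034367-1 was -1.79. With median centring the knockout change was -0.13 in Z00026482-1 and 0.02 in Z00053291-1.

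Over the fit across all probes, 15 members passed the filter for detection on at least 2 arrays and 9 did not. Z00029510-1, Z00025643-1, Z00024414-1 and Z00052592-1 passed through their wild-type arrays alone, so the filter itself favoured members with a lower knockout signal. The counts therefore describe the 15 only. By limma with Benjamini-Hochberg adjustment, 0 of the 15 were called lower in knockout at E15.5, where 2.92% of all probes tested were. The count there was 0 without adjustment too, against 10.8% of all probes, and 1 with median centring, against 7.64%. At E16.5, 4 were called, against 1.47% of all probes: Z00045412-1, Z00053291-1, Z00075530-1 and Z00026482-1. At E17.5, 8 were called, against 0.589% of all probes: the same 4 and Z00026375-1, Z00071026-1, Z00029510-1 and Z00034367-1. Without adjustment the late counts were 12 and 12, against 7.92% and 5.43% of all probes. The contrasts are those of the selection, so nothing is read from these shares. With replicate number as a block the counts were 9 and 10, against 4.52% and 2.19% of all probes in that fit. With median centring they were 2 and 5, against 0.398% and 0.277%. At each late stage fewer members were called lower when any 1 array of that stage was left out. Fewer of all probes were called lower in those fits too.

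Both knockout arrays lay below both wild-type arrays at E16.5 in 12 of the 15, where 25.8% of all probes tested did, and in 13 of the 15 at E17.5, where 28.1% did. At both stages it was 11, against 13.5% of all probes. At E15.5 it was 4, against 21%. Between E15.5 and E17.5, limma called 5 members higher in wild type, where 21% of all probes were: Z00071026-1, Z00053291-1, Z00075530-1, Z00029510-1 and Z00025643-1. It called Z00045412-1 lower in wild type, as it did 22.1% of all probes. In knockout it called 0 higher, where 27% of all probes were, and 5 lower, where 28.8% were: Z00045412-1, Z00026482-1, Z00026375-1, Z00034367-1 and Z00075530-1. Without adjustment limma's counts were 0 higher and 6 lower in knockout, where 29.2% and 31.2% of all probes were. In wild type they were 7 higher and 1 lower, against 24.5% and 25.7%. More members were called lower in knockout without knockout replicate 1 of E15.5, and so were more of all probes. The higher count in wild type was 3 with median centring, where 20.9% of all probes were. Z00045412-1 was called lower over time in both genotypes. Z00075530-1 was called higher in wild type and lower in knockout, but in knockout it was not called in Cy3 alone, with Agilent's processed signals or with median centring, where its change was 0.22 in place of -0.31. With replicate number as a block the counts were 6 higher (25.7% of all probes) and 1 lower (26.9%) in wild type, and 0 higher (30.9%) and 7 lower (32.7%) in knockout. That block added Z00071173-1 in wild type, and Z00053291-1 and Z00028616-1 in knockout. Without a test, the 2 wild-type arrays of E17.5 lay above those of E15.5 in 10 of the 15 and below in 1, where 35.5% and 37.6% of all probes did. In knockout they lay above in 0 and below in 8, where 37.2% and 40% of all probes did.

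The size of the gap depended on the processing. With Agilent's processed signals the median log2 difference over the 24 members was -1.23 at E16.5 and -1.40 at E17.5, and in the authors' table -1.12 and -1.20. On the loess ratios it was -0.35 and -0.38. In the 9 detected members the Agilent medians were -1.001 and -1.15 against loess medians of -0.61 and -0.84. The scales thus lay closer where the probe was measured on every array. The same thresholds applied to the loess ratios of the table's probes left 6 probes, of which 3 were members: Z00045412-1, Z00053291-1 and Z00026983-1. Applied to Agilent's processed signals they gave 55 probes, among them all members but Z00027182-1.

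With 1 array left out in turn, 7 members met the selection in all 12 repeats: Z00029510-1, Z00025643-1, Z00024414-1, Z00037454-1, Z00025131-1, Z00053291-1 and Z00026375-1. At the other end, Z00072174-1 did in 4, and Z00028616-1, Z00036976-1 and Z00026774-1 in 5. The number of probes selected ran from 20 to 37, the highest without wild-type replicate 1 of E17.5. Of the 7, only Z00053291-1 and Z00026375-1 were well above background on all 12 arrays, and Z00025131-1 was so on none. Z00024414-1, Z00037454-1 and Z00025131-1 hold 1 identical value on all 4 E15.5 arrays, so leaving out one of those could not change their E15.5 difference. A surrogate stood in for Cy3 on 8 arrays of Z00029510-1 and on 3 of Z00025643-1. For these dim probes, meeting the selection in every repeat is therefore not read as stability.

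In the reference channel the median log2 difference of knockout minus wild type over the members was -0.0015, 0.0026 and -0.0075 in order of stage. Apart from Z00026983-1 and Z00076869-1, no member's mean reference signal differed by more than 0.243 in log2 between knockout and wild type at any stage. The late footpad-over-reference differences of several dim members were smaller than that. The reference was well above background on all 12 arrays for 9 members and on none for 4. Among the 9 members detected throughout in Cy3, 6 had their reference well above background on all 12 arrays. It was so on 11 arrays for Z00071173-1, 5 for Z00028616-1 and 3 for Z00031876-1. The ratios of Z00028616-1 and Z00031876-1 thus rest on a reference near background on most arrays. The GC content of the member probes had a median of 45.0%, from 30.0% to 61.7%, against a median of 43.3% and quartiles of 36.7% and 48.3% over the table's probes. Each member was measured by 1 spot per array, and no member spot was marked as an outlier.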

How the data were processed

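RNA of 12 footpad samples was measured on 2-colour arrays. The deposited files hold spot intensity values that Agilent Feature Extraction 9.5.1.1 had read from the scans, per the file headers. The authors' series table holds log10 values. The sources used here do not say how its 25030 probes were selected. The members were taken from it by the stated thresholds. Members, lists and alternatives were chosen with earlier results of these data known. Mean intensities were corrected by normexp (offset 50), normalized by loess within array with limma 3.58.1 in R 4.3.3, and turned to log2 of footpad over reference from the deposited intensities. The 30367 probes with Cy3 well above background on at least 2 arrays and a value for every comparison were tested by limma on 6 group means, with Benjamini-Hochberg adjustment at 0.05. The script was tested on simulated data.

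Named were, by rule, the 10 members with the lowest late means, the 5 with the highest and lowest change over time in each genotype and those nearest each threshold. A rank by reference signal, also planned, was not used because signals of different probes are not on 1 scale. The other members are named to account for all 24. Gene lists, marker lists and the targeted transcript were not analysed here, as no table used here names these probes. Same-numbered samples deviated together (correlations across probes of 0.61, 0.25 and 0.16 at the 3 stages, each over 0.1). Each correlation rests on 1 pair of samples per stage. The main fit left this pairing out, and counts with the replicate number as a block are given beside it. The alternatives were that block, Agilent's processed signals, median centring, Cy3 alone, no filter, the authors' values, other thresholds and each array left out. The number of arrays limits the precision.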

Additional observations from a re-analysis of the deposited data

How the results depend on the processing

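Over all probes, limma called 1797, 582 and 422 from E15.5 to E17.5, and over time 13107 in wild type and 16956 in knockout. With the replicate block the stages gave 6911, 2368 and 2151, with Agilent's processed signals 675, 148 and 177, and with the authors' values 484, 289 and 173. The authors' values gave 8009 and 10823 over time, and median centring gave 206 at E16.5. Leaving out 1 array gave 135 to 7806, 116 to 1168 and 119 to 809 at the stages, 8797 to 14750 in wild type and 13342 to 17278 in knockout. The split moved with the scaling: at E15.5 910 higher and 887 lower became 124 and 2319 with median centring, which shifted the median of all probes to -0.11, and 220 and 455 with Agilent's signals. At E16.5 137 and 445 became 85 and 121, and at E17.5 243 and 179 became 362 and 84. Over time in knockout 8207 and 8749 became 13191 and 4312, with a median of all probes of 0.20.

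The count of 24 members was 6 on loess ratios, 55 on Agilent's signals, 12 with late thresholds of -0.3, 8 with an E15.5 difference above 0, and 20 to 37 with 1 array left out. Agilent's signals moved the late medians to -1.23 and -1.40 and the changes over time to 0.78 in wild type and -0.49 in knockout. The authors' values gave -1.12, -1.20, 0.78 and -0.32. Median centring gave 0.078, -0.25, -0.32, 0.15 and -0.25 for the 3 stages and the wild-type and knockout changes. Cy3 alone gave -0.19, -0.26, 0.17 and -0.11 for the late stages and these changes. Chosen after seeing the data, the 9 members detected throughout gave 0.068, -0.61 and -0.84 by stage and -0.44 for the knockout change, and the 18 detected on at least 1 array gave -0.46 at E17.5 and -0.19 for the knockout change. With 1 array left out the medians were -0.041 to 0.014, -0.35 to -0.29 and -0.46 to -0.35 by stage, 0.16 to 0.22 in wild type and -0.16 to -0.084 in knockout. Where an arm kept 1 array, it was assumed to vary like the other groups. Of 384 late differences of single members recomputed, 273 moved by less than 1 SD and 111 by 1 SD or more. That SD combined the spread between replicate arrays in both genotypes, so leaving out 1 array could not move a difference that far. The 111 thus all came from the alternative processings, and no stability is read from the 273. Of the 384, 12 changed sign, in 6 members. The causes were not tested. Signal over background limits what can be said of the 15 members not detected on every array.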
